A study of Rattus norvegicus with 30 samples.

Results

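The interleukin genes of the rat lung and the genes of their receptors were followed here in newborn rats through the first 14 days of life. Members were all protein-coding genes of the deposited table whose symbol begins with Il and a number, which gave 80 of 35224 genes. By their known roles, 36 encode ligands, 37 encode receptor chains, 6 encode antagonists or decoy receptors (Il1rn, Il36rn, Il18bp, Il1r2, Il13ra2 and Il22ra2) and 1, Il4i1, encodes an amino acid oxidase. After a filter on low counts 52 members could be tested: 16 ligands, 30 receptors, 5 antagonists or decoys and Il4i1. Whole lung without trachea was taken from pups labelled 85percent O2, which model hyperoxic lung injury from the first day of life, and from pups labelled 21percent O2, kept in normal air, on days 1, 3, 7, 10 and 14. Each of the 10 groups has 3 libraries of messenger RNA. The protocols state that litters were divided at random, that the groups were exchanged daily to even out nursing, and that an arm had 12 rats, while each arm has 15 libraries. Whether the 3 libraries of a group stem from different pups is not stated, and the p-values below therefore speak only of the variation among the libraries, part of which may be technical.

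Interleukins are secreted signals between immune, epithelial and stromal cells. Members of the IL-1 family act through paired receptors and the MyD88 adaptor, whereas IL-2, IL-6, IL-10 and IL-12 type cytokines act through receptor chains coupled to JAK kinases and STAT transcription factors. Soluble antagonists and decoy receptors bind the ligand or occupy the receptor without passing on the signal. In the lung, epithelium and endothelium store IL-33, alveolar macrophages release IL-1 and IL-6, and stromal cells supply IL-7, IL-15 and IL-34.

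Library totals lay between 14951463 and 18074590 counts, with a median of 16069831. Alveolar type 2 cell markers summed to 10642 to 12597 CPM (counts scaled to the library's size) in 85%-labelled lungs and 21063 to 23742 CPM in 21%-labelled lungs at day 14, so the defining markers of lung were present. Genes that high oxygen is known to induce went against the treatment labels at the later days, with 6 of 7 lower in 85%-labelled lungs at day 10 and 7 of 7 at day 14. At day 1 they were mixed, with Mdm2 higher, Nqo1 and Hmox1 lower, and Cdkn1a at a log2 difference of -0.01. Cdkn1a, a cell-cycle inhibitor, averaged 29.4 ± 4.37 CPM in 85%-labelled and 430 ± 42.4 CPM in 21%-labelled lungs at day 14, and Gdf15, a stress cytokine, 5.04 ± 0.463 and 137 ± 19.1 CPM (SD, n = 3 each). Nqo1, an antioxidant enzyme, averaged 40.7 ± 1.91 CPM in 85%-labelled and 81.2 ± 12.0 CPM in 21%-labelled lungs at day 14. Titles of the 85%-labelled libraries begin with A and those of the 21%-labelled libraries with O. Every direction below therefore rests on the labels as they stand, and the groups are called 85%-labelled and 21%-labelled. The share of mitochondrially encoded genes was 5.31% to 19.1% in 85%-labelled libraries at day 1, against 2.71% to 3.03% in 21%-labelled libraries, and 4 of the 30 libraries lay above 6%. No label or file header names a batch.

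Compared per length, in the deposited length-scaled unit (FPKM, fragments per kilobase of gene and per sequencing depth) averaged over all libraries, the most abundant members were Il4r, the receptor chain shared by IL-4 and IL-13, at 51.4 FPKM, and Il33, the epithelial and endothelial alarmin, at 37.0 FPKM. Il6st, the gp130 chain shared by all IL-6 type cytokines, followed at 36.9 FPKM, Il11ra1, the IL-11 receptor, at 36.4 FPKM, and Il15, which supports natural killer and memory T cells, at 30.5 FPKM. Group means of Il4r stayed between 42.6 and 61.1 FPKM, and those of Il11ra1 between 28.6 and 48.2 FPKM. Il6st ranged much more widely, between 6.74 and 70.5 FPKM, and Il15 between 8.76 and 59.3 FPKM. The map of group levels shows, within each row, how a member varied between groups. It is in CPM, which is not scaled to gene length, so its rows are not to be compared with each other.

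**Figure D1:**
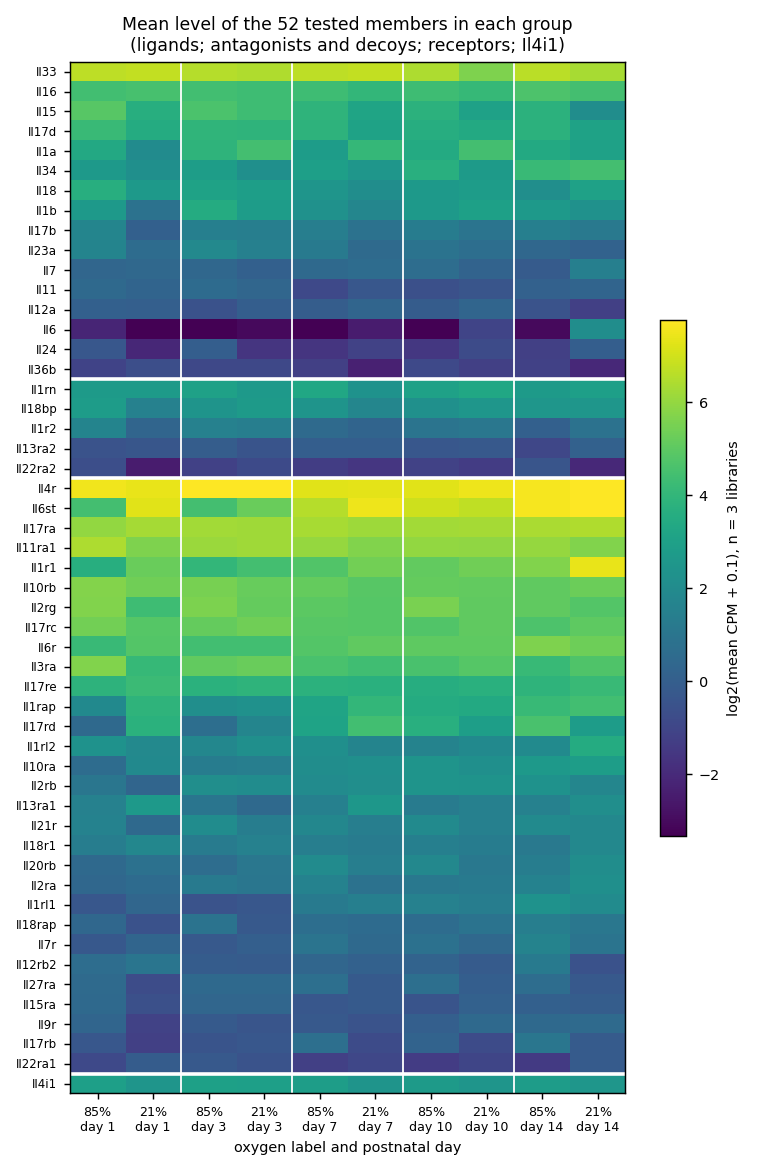
Mean level of each of the 52 tested members (rows, by role) in each of the 10 groups (columns, 85%-labelled left of 21%-labelled within each day), as log2(mean CPM + 0.1) with n = 3 libraries a group. Il4r is bright in every column, Il6 is brightest in the 21%-labelled day 14 column, and the row of Il6st is darkest at day 1 and day 3 in the 85%-labelled columns.

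The 28 members that could not be tested were 20 ligands, 7 receptors and 1 antagonist. Among them are several signals made by activated T cells: Il2, Il4, Il5, Il10, Il13, Il17a, Il17f, Il21 and Il22. Il1f10, Il3 and Il9 had no count in any library. The untested member with the highest level in a single library was Il25, an epithelial alarmin, at 0.647 CPM in 1 of the 85%-labelled day 1 lungs. Its day 1 levels were 0.647, 0.228 and 0.293 CPM in 85%-labelled and 0, 0.062 and 0.0579 CPM in 21%-labelled lungs. Il36g, a cytokine of squamous epithelium, reached 0.592 CPM in replicate 1 of the 85%-labelled day 10 lungs, which held 10 of its 11 counts in the whole series. In that library squamous epithelium markers summed to 204 CPM, against 2.18 to 6.31 CPM in the other day 10 libraries, and skeletal muscle markers to 1575 CPM, against 3.34 to 12.4 CPM. Replicate 2 of the 21%-labelled day 1 lungs had more of the squamous markers, 257 CPM, and 0.062 CPM of Il36g. Their part in the level of Il36g was not tested. Il36rn, the antagonist of the same receptor, was highest at 0.586 CPM in replicate 1 of the 21%-labelled day 1 lungs and reached 0.474 CPM in the 85%-labelled day 10 library just named.

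At day 14 the 85%-labelled lungs had far less Il6, less Il7, and fewer transcripts of the signalling IL-1 receptor Il1r1 and the IL-36 receptor Il1rl2. They had more Il15, more Il17d and more of the IL-12 receptor chain Il12rb2. These 7 of the 52 tested members passed an adjusted p of 0.05 and an absolute log2 difference of 0.5 in edgeR's quasi-likelihood test, with 3 higher and 4 lower, beside 10.5% and 10.8% of all genes. That is 13.5% of the members, against 21.2% of all 17571 genes tested, so the interleukin genes were called no more often than genes at large. The median log2 difference, 85%-labelled minus 21%-labelled, was -0.01 over the members and 0.01 over all genes. By role, 4 of 16 ligands, 3 of 30 receptors and none of 5 antagonists or decoys were called, and 2 of these 5 had an unadjusted p under 0.05. The same 7 and some further members were called with only the libraries of the day (11), without the 4 libraries of high mitochondrial share (11) and with the length correlation described below as a covariate (15). Over all genes the count rose as well, from 3728 to 4515 with the day alone and 4513 with the length covariate.

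Among the ligands, Il6 (chromosome 4, 3043231 to 3047807 in the deposited table), the inducer of the acute phase response, stood at 0.0599, 0 and 0 CPM in 85%-labelled lungs, against 1.38, 1.52 and 9.91 CPM in 21%-labelled lungs. The 85%-labelled libraries held 1 count together and the 21%-labelled libraries 209, of which 162 came from replicate 3. The groups did not overlap, and the 21%-labelled group had 203 times the level of the 85%-labelled group, with a 95% counting interval of 36.0 to 8037. The adjusted p was 0.000745. Il6 passed the count filter through 21%-labelled libraries, so a difference was built into its being tested. At day 10 the same pattern was present at lower counts, 0 against 20, which puts the 85%-labelled group at least 6.21-fold lower with a floor of 3 counts over the group, at an adjusted p of 0.111. At day 1 the order was the other way, with 6 counts in 85%-labelled and 0 in 21%-labelled lungs.

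Il7 (chromosome 2, 96439286 to 96474977), the survival factor of lymphoid precursors, had 0.599, 1.07 and 0.721 CPM in 85%-labelled lungs, against 2.63, 3.33 and 2.02 CPM in 21%-labelled lungs. Its groups did not overlap and its log2 difference was -1.73 (SE 0.36, adjusted p 0.00103). Il15 (chromosome 19, 23542889 to 23554594) had 15.1, 14.8 and 11.6 CPM, against 3.70, 4.24 and 4.89 CPM in 21%-labelled lungs. The lowest 85%-labelled library lay well above the highest 21%-labelled one, with a log2 difference of 1.69 (SE 0.37, adjusted p 0.00162). Il17d (chromosome 15, 37790141 to 37807660), an IL-17 family member of non-immune tissues, had 15.9, 13.1 and 13.2 CPM, against 7.39, 7.76 and 9.54 CPM in 21%-labelled lungs, a log2 difference of 0.77 (SE 0.21, adjusted p 0.00753).

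Among the receptors, Il1r1 (chromosome 9, 46962288 to 47036670), the chain that binds IL-1 alpha and IL-1 beta, had 52.3, 48.5 and 52.1 CPM in 85%-labelled lungs, against 130, 202 and 173 CPM in 21%-labelled lungs. The 85%-labelled libraries lay close together and below every 21%-labelled one, and the log2 difference was -1.72 (SE 0.42, adjusted p 0.004). Il1rl2 (chromosome 9, 47047832 to 47095831), its neighbour on the chromosome, had 3.53, 3.54 and 4.55 CPM, against 5.51, 21.0 and 7.83 CPM in 21%-labelled lungs. Its log2 difference of -1.56 (SE 0.44, adjusted p 0.0113) leaned on replicate 2 of the 21%-labelled lungs, without which it was -0.80 at an adjusted p of 0.173. Il12rb2 (chromosome 4, 98052842 to 98141482), the signalling chain of the IL-12 receptor on T and natural killer cells, had 2.16, 2.40 and 2.22 CPM, against 0.564, 0.545 and 0.673 CPM in 21%-labelled lungs. The libraries of each group lay close together, with a log2 difference of 1.91 (SE 0.37, adjusted p 0.000421).

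**Figure D2:**
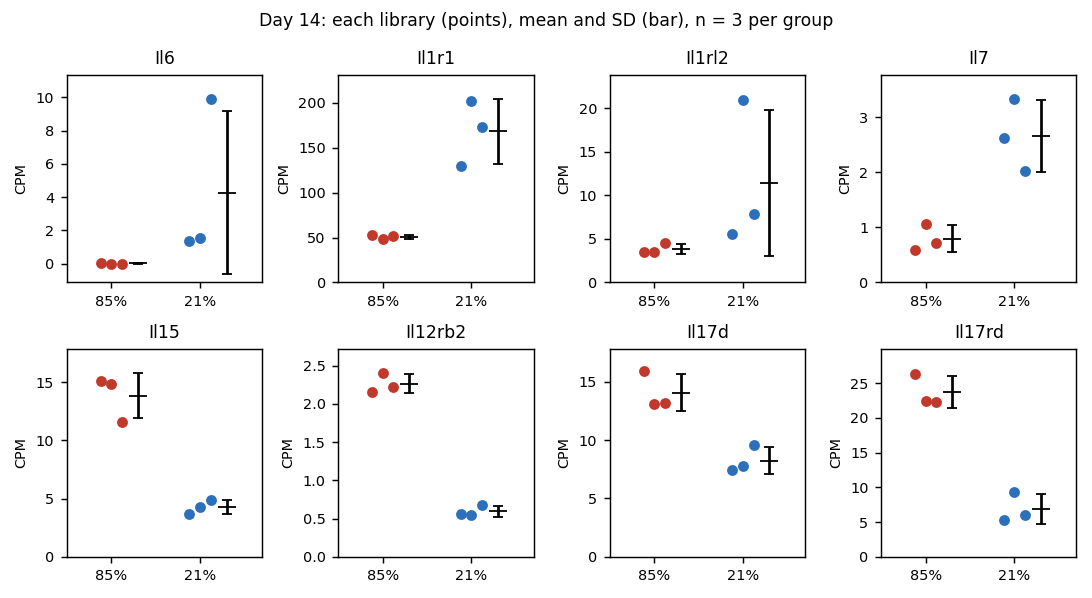
Level in CPM of the 7 members called at day 14 and of Il17rd, with 1 point for each library, 85%-labelled (left) and 21%-labelled (right), and the mean with its SD (n = 3). The groups do not overlap in any panel, and the single high library of Il6 (9.91 CPM) and of Il1rl2 (21.0 CPM) is in the 21%-labelled group.

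None of the tested partners given here was called at day 14 in edgeR's fit over all libraries without a covariate. For IL-15 and IL-12 the partners' values lay on the same side as the called member, and for IL-7 on the opposite side. For IL-6, Il6r, the ligand-binding chain, had 49.7, 52.3 and 47.0 CPM in 85%-labelled lungs, against 38.0, 39.2 and 42.7 CPM in 21%-labelled lungs, without overlap but at a log2 difference of 0.31 and an adjusted p of 0.166. Il6st overlapped between the groups, with a log2 difference of -0.15. In edgeR with the length covariate Il6st was called, at -1.37 and an adjusted p of 0.00113. For IL-1, the ligands Il1a and Il1b had log2 differences of 0.39 and 0.42, the accessory chain Il1rap -0.27 and the antagonist Il1rn -0.21, and none of these was called by edgeR, though with the length covariate Il1b (0.96, adjusted p 0.00826) and Il1rap (-1.07, adjusted p 0.0102) were. The decoy Il1r2 did not overlap, with a log2 difference of -0.83 and an adjusted p of 0.127. For IL-15, Il15ra, which presents the cytokine, differed by 0.13, the shared beta chain Il2rb by 0.56 and the common gamma chain Il2rg by 0.26, all short of the threshold. In edgeR with the length covariate Il2rg was called, at 0.56 and an adjusted p of 0.00281. For IL-7, Il7r had a log2 difference of 0.71 at an adjusted p of 0.264. For IL-12, the subunit Il12a had a log2 difference of 0.86 at an adjusted p of 0.381, while the untested Il12b had 0.24, 0.189 and 0.222 CPM in 85%-labelled lungs and no count in 21%-labelled lungs. Il12rb1, the partner of Il12rb2, was also untested, at 0.3, 0.316 and 0.388 CPM in 85%-labelled and 0.251, 0.182 and 0 CPM in 21%-labelled lungs.

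Il17rd, an IL-17 receptor relative that is also known to restrain fibroblast growth factor signalling, lay just outside the threshold. It had 26.4, 22.4 and 22.3 CPM in 85%-labelled lungs, against 5.33, 9.27 and 6.05 CPM in 21%-labelled lungs, a log2 difference of 1.78 (SE 0.69, adjusted p 0.0605). It passed the threshold in DESeq2 (adjusted p 0.0354), with the mitochondrial covariate (0.0268), without the libraries of high mitochondrial share (0.0244), with a replicate block (0.0446) and with the libraries of the day alone (0.000628). Il17rd did not pass with RLE size factors, without the low-count filter or with the length covariate. Il18, a product of inflammasome cleavage, had 5.39, 2.90 and 4.93 CPM, against 10.2, 7.52 and 6.60 CPM in 21%-labelled lungs, a log2 difference of -0.88 (adjusted p 0.0799). Neither gene overlapped between the groups.

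The stretches before the starts of Il6, Il1r1 and Il15 are shown because these genes differed at day 14 in opposite directions, Il6 and Il1r1 lower and Il15 higher in 85%-labelled lungs. They are the 250 bases before the start in RefSeq (rat build GRCr8, in which 63 of the 80 members have an entry), at chr4:5894576-5894825 on the minus strand for Il6, chr9:50034133-50034382 on the plus strand for Il1r1 and chr19:42544456-42544705 on the plus strand for Il15, written 5′ to 3′. The build of the deposited coordinates above was not stated, so the 2 sets of coordinates do not carry over to each other. Capitals mark matches, on either strand, to 4 motifs chosen after the values were seen: kB (GGG, any 2 bases, TTTCC), CRE (TGACGTCA), C/EBP (TTNCNNAA) and AP-1 (TGANTCA).
Il6: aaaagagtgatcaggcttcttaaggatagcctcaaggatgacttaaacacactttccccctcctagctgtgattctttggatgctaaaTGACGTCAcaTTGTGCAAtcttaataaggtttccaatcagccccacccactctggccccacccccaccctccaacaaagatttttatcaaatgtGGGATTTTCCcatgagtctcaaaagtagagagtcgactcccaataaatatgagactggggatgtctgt
Il1r1: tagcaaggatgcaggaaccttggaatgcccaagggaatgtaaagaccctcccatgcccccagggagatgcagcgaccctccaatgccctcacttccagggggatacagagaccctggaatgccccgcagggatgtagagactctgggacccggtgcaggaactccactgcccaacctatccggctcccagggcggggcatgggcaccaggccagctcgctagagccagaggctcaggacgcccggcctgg
Il15: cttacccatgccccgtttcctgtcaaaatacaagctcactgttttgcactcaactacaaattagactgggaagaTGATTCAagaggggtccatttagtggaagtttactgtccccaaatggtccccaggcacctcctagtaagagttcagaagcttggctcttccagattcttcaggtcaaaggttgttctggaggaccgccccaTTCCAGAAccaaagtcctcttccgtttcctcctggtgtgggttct
The Il6 stretch holds a CRE match at -162, a C/EBP match at -152 and a kB match at -68, counted from the start. The Il15 stretch holds an AP-1 match at -176 and a C/EBP match at -45, and the Il1r1 stretch holds none of the 4. Of 33469 RefSeq stretches of this length, 1.3% hold the kB motif, 1.59% the CRE, 6.34% the AP-1 motif and 37.2% the C/EBP motif. None of the 3 stretches holds the STAT motif TTCNNNGAA or the interferon element (GAAA, any 2 bases, GAAA). These are found in 7.67% and 3.41% of all stretches. Of the 7 members called at day 14, 6 have an entry. Among those not shown, Il12rb2, with 2 entries, holds a STAT match at -177 in 1 and a C/EBP match at -104 in the other. Il1rl2 holds a C/EBP match at -183. A match is a run of letters and no measure of binding.

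Relatives of Il6 outside the Il symbols were called in both directions at day 14, when 10.5% of all genes were called higher and 10.8% lower. Of 10 IL-6 type cytokines and receptors, 3 were called higher (Lifr, Clcf1 and Cntfr) and 4 lower, among them Lif, Osmr and Ebi3, with a median log2 difference of -0.35, beside 0.01 over all genes. Lif, which signals through gp130, averaged 1.53 ± 0.734 CPM in 85%-labelled and 15.1 ± 6.16 CPM in 21%-labelled lungs, and Osmr, the oncostatin M receptor, 14.0 ± 2.96 and 91.7 ± 22.0 CPM (SD, n = 3 each). Ebi3, a subunit of IL-27 and IL-35, averaged 0.686 ± 0.318 and 5.01 ± 0.834 CPM. Of 22 JAK, STAT and SOCS genes, 2 were higher (Stat5a and Socs1) and 5 lower, among them Jak3 and Stat3, with a median of 0.08. Stat3, the main transducer of IL-6, averaged 223 ± 6.05 and 449 ± 23.8 CPM, and Jak3, the kinase bound to the common gamma chain, 17.7 ± 2.17 and 52.6 ± 8.9 CPM. Socs1, an inhibitor of JAK kinases, averaged 14.8 ± 2.4 and 5.32 ± 2.24 CPM. Of 14 IL-1 receptor adaptors and kinases, 2 were lower (Myd88 at a log2 difference of -0.70 and Irak3 at -0.59) and none higher. Of 11 inflammasome genes, Txnip was higher (1.33) and Nlrp3 (-0.83) and Gsdmd (-1.02) lower. Of 13 other haematopoietic cytokines and receptors, Kit (3.11) and Kitlg (0.55) were higher and Csf1, Csf2ra and Csf2rb lower.

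Markers of several cell types also differed at day 14, beside the 10.5% of all genes called higher and 10.8% called lower. In whole tissue, fewer cells of a type and less RNA per cell cannot be told apart. Of 10 macrophage markers 9 were called lower in 85%-labelled lungs, where the list summed to 340 to 375 CPM, against 706 to 982 CPM in 21%-labelled lungs. Of 8 alveolar type 2 markers 6 were lower. Neutrophil markers summed to 87.9 to 88.4 CPM in 85%-labelled and 231 to 486 CPM in 21%-labelled lungs, with 1 of 8 called in each direction. Ngp was the marker called higher and Lcn2, also 1 of the 7 oxygen genes above, the marker called lower. The median log2 difference over the 8 was only -0.09, so the sums do not speak for the list as a whole. All 5 B cell markers were higher, at sums of at least 15.2 CPM in 85%-labelled and at most 3.55 CPM in 21%-labelled lungs. T cell markers overlapped, at 42.7 to 49.6 CPM in 85%-labelled and 39.8 to 74.9 CPM in 21%-labelled lungs, with 2 of 8 called higher. Natural killer and innate lymphoid markers summed to 20.9 to 23.4 and 5.15 to 7.08 CPM, with 1 of 6 called, Gata3, which was higher. Endothelial markers were higher for 5 of 7, at sums of 3704 to 4147 and 1679 to 2290 CPM. The part of these cell types in the differences of Il6, Il1r1, Il7, Il15 and Il12rb2 was not tested.

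At day 1 the 85%-labelled lungs had more of 8 of the 16 tested ligands, among them Il1b, Il1a, Il15, Il18 and Il23a, and less of the receptor genes Il6st, Il17rd, Il1rap and Il1r1. In all, 24 of 52 members (46.2%) were called, against 41.4% of all genes tested, so the members were called about as often as genes at large. Of these, 18 were higher and 6 lower, where 20.6% of all genes were higher and 20.8% lower. The median log2 difference was 0.40 over the members and 0.03 over all genes. Il24 (2.29) and the decoy Il22ra2 (2.59), both under 1 CPM on average, had the largest positive log2 differences of the called members, and Il22ra2 overlapped between the groups. All 8 called ligands and all 3 called antagonists or decoys were higher, while 7 of the 13 called receptors were higher and 6 lower.

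None of these 24 calls held under every alternative, and the mitochondrial share differed between the groups. The 85%-labelled day 1 libraries had mitochondrial shares of 19.1%, 5.31% and 11.5%, and replicate 2, with the lowest share, lay nearest to the 21%-labelled lungs for several genes. With the mitochondrial share as a covariate 0 members were called, and with the correlation of level and gene length as a covariate 1, Il2rg. Without the 4 libraries above 6%, which leaves 1 library in the 85%-labelled group, assumed to vary like the others, 1 was called, again Il2rg. The loss was not particular to the members, since the count over all genes was 7278, and 27, 172 and 253 in these 3 fits. The correlation of level with gene length within a library was 0.225 to 0.287 in 85%-labelled and 0.344 to 0.363 in 21%-labelled libraries at day 1. What lies behind these shares and correlations was not measured, and beyond these fits their part in the day 1 values was not tested.

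Il2rg, the gamma chain shared by the receptors of IL-2, IL-4, IL-7, IL-9, IL-15 and IL-21, had 56.7, 48.0 and 49.2 CPM in 85%-labelled lungs, against 19.8, 18.9 and 22.0 CPM in 21%-labelled lungs. All 3 libraries stood well apart, with a log2 difference of 1.34 (SE 0.20, adjusted p 0.000205), which was 0.95 at an adjusted p of 0.094 with the mitochondrial covariate. Il3ra, the IL-3 receptor alpha chain, had 81.1, 27.0 and 43.1 CPM, against 16.3, 15.6 and 19.2 CPM in 21%-labelled lungs, a log2 difference of 1.56 (SE 0.29, adjusted p 0.000644). The library with the highest mitochondrial share was also the highest for Il3ra. Il21r and Il17rc, receptor chains for IL-21 and IL-17, were higher by 1.18 and 0.59 on the log2 scale, Il11ra1 by 0.78, Il18rap by 1.03 and, with overlapping groups, Il27ra by 1.43.

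Of the IL-1 family ligands, Il1b had 4.77, 4.05 and 9.45 CPM in 85%-labelled lungs, against 2.23, 1.49 and 1.39 CPM in 21%-labelled lungs, a log2 difference of 1.83 (SE 0.37, adjusted p 0.000884). Il1a, the alarmin form of IL-1, had 6.71, 11.8 and 12.3 CPM, against 4.86, 2.73 and 4.29 CPM in 21%-labelled lungs, a log2 difference of 1.37 (adjusted p 0.0363). Neither overlapped between the groups. Il18 had 8.65, 7.53 and 20.7 CPM, against 7.79, 5.15 and 6.20 CPM in 21%-labelled lungs, so its call (log2 difference 0.94, adjusted p 0.0341) came with overlapping groups. The blockers rose beside them: Il1r2, the decoy that captures IL-1, had 4.04, 2.34 and 3.00 CPM, against 1.05, 1.05 and 1.27 CPM in 21%-labelled lungs (log2 difference 1.46, adjusted p 0.00422). Il18bp, the soluble inhibitor of IL-18, had 9.22, 4.68 and 6.67 CPM, against 2.81, 2.23 and 3.42 CPM in 21%-labelled lungs (log2 difference 1.27, adjusted p 0.0033). Il1rn, by contrast, was level at day 1, with a log2 difference of -0.01.

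Of the other ligands, Il15 had 47.4, 16.4 and 24.8 CPM in 85%-labelled lungs, against 14.4, 12.3 and 10.2 CPM in 21%-labelled lungs (log2 difference 1.26, adjusted p 0.0069). Il23a, a subunit of IL-23, had 3.56, 2.17 and 3.74 CPM, against 1.35, 1.86 and 1.04 CPM in 21%-labelled lungs (log2 difference 1.15, adjusted p 0.0076). Il17b had 5.58, 1.77 and 2.27 CPM, against 0.469, 1.05 and 1.33 CPM in 21%-labelled lungs (log2 difference 1.73, adjusted p 0.0129). The groups did not overlap for these 3 genes. Neutrophil markers were higher for 4 of 8, at sums of 230 to 599 CPM in 85%-labelled and 132 to 159 CPM in 21%-labelled lungs, and T cell markers for 4 of 8, at 18.6 to 27.3 and 14.6 to 16.1 CPM. Macrophage markers split, with 2 of 10 higher and 3 lower, at 218 to 285 and 265 to 285 CPM. At day 1, 20.6% of all genes were called higher and 20.8% lower, and these marker calls come from the fit without a covariate. The part of these cell types in the ligand levels was not tested.

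The lower members at day 1 were all receptor chains. Il6st had 6.55, 51.5 and 7.40 CPM in 85%-labelled lungs, against 112, 180 and 167 CPM in 21%-labelled lungs, a log2 difference of -2.79 (SE 0.72, adjusted p 0.00355). Il17rd had 0, 2.74 and 1.10 CPM, against 11.1, 14.8 and 14.3 CPM in 21%-labelled lungs, a log2 difference of -3.32 (SE 0.77, adjusted p 0.00189). The next in size were both chains of the IL-1 receptor. Il1rap had 0.808, 7.47 and 3.08 CPM, against 12.5, 15.4 and 16.5 CPM in 21%-labelled lungs, a log2 difference of -1.94 (adjusted p 0.00459). Il1r1 had 9.22, 19.3 and 8.06 CPM, against 29.8, 49.4 and 33.5 CPM in 21%-labelled lungs, a log2 difference of -1.61 (adjusted p 0.0048). The groups did not overlap for these 4 genes, and the highest of the 85%-labelled libraries was replicate 2 in each, the one with the lowest mitochondrial share. Il10ra (-1.36), the IL-10 binding chain, and Il6r (-0.59) complete the 6. With the mitochondrial covariate the log2 difference of Il6st was -0.89 and that of Il17rd -0.31, neither called.

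The members called lower at day 1 were longer at the median than those called higher, with overlapping ranges. The 6 lower members had a median deposited length of 3321.5 bases, with a range of 1992 to 4597, and the 18 higher members one of 1421 bases, with a range of 489 to 5305, beside 2371 bases over the tested members. Across the 52 members, which share the same 6 libraries, the Spearman correlation of the day 1 difference with length was -0.40. It was 0.00 for the day 3 difference, -0.24 for that of day 7, -0.06 for day 10 and -0.05 for day 14. The same order held over all genes at day 1. Their median length was 1580.5 bases for those called higher, 2771 bases for those called lower and 2189 bases for those tested. At day 14 the order over all genes was the other way, at 2799 bases called higher and 1959 bases called lower. The correlation of level with length was then 0.382 to 0.4 in 85%-labelled and 0.319 to 0.364 in 21%-labelled libraries. Their mitochondrial shares were 2.69% to 2.77% and 3.33% to 3.77%. The part of these in the day 14 values was not tested beyond the fits given. Of 22 JAK, STAT and SOCS genes 10 were called lower and 2 higher at day 1, beside 20.8% and 20.6% of all genes. Of 10 IL-6 type genes outside the Il symbols 2 were lower and 3 higher. The lengths of the genes in these lists were not compared. Lifr, a partner of Il6st, averaged 14.3 ± 9.77 CPM in 85%-labelled and 163 ± 51.3 CPM in 21%-labelled lungs (SD, n = 3 each).

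**Figure D3:**
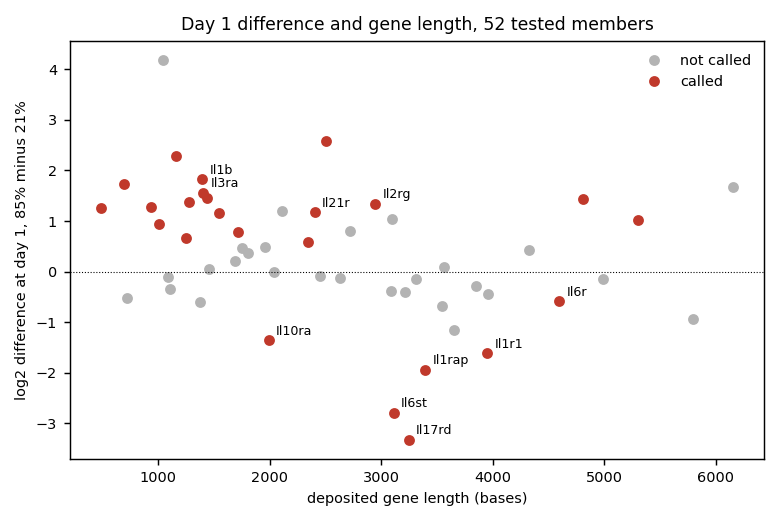
Log2 difference at day 1, 85%-labelled minus 21%-labelled, against the deposited gene length in bases for the 52 tested members, with called members in red. The 6 called members below zero lie at 1992 bases or more, and 16 of the 18 above zero lie below 3112 bases, the length of Il6st.

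Between these days few members differed. At day 3 edgeR called 0 of 52 members, beside 0.393% of all genes (0.313% higher and 0.0797% lower), with 4 members and 1311 of all 17571 genes at an unadjusted p under 0.05 and 0 called by DESeq2. At day 7 edgeR called 0, beside 0.0854% of all genes (0.0341% higher and 0.0512% lower), with 8 members and 2976 genes at an unadjusted p under 0.05, while DESeq2 called 2, Il17d (log2 difference 0.79 in edgeR) and Il1rn (0.94), and edgeR called 3, these and Il17rb, without replicate 3 of the 85%-labelled lungs. Il17d had 12.5, 19.5 and 11.1 CPM in 85%-labelled lungs at day 7, against 7.79, 9.08 and 7.97 CPM in 21%-labelled lungs, without overlap. Il1rn, the IL-1 receptor antagonist, had 13.6, 9.64 and 5.59 CPM, against 4.92, 6.19 and 3.84 CPM in 21%-labelled lungs, with overlap. At day 10 edgeR called 0, beside 2.93% of all genes (1.75% higher and 1.18% lower), with 7 members and 2688 genes at an unadjusted p under 0.05, and DESeq2 called 1, Il33. Il33 had 80.1, 87.4 and 86.4 CPM in 85%-labelled lungs, against 49.4, 58.2 and 42.6 CPM in 21%-labelled lungs. Its groups did not overlap and its log2 difference was 0.76 (SE 0.22, adjusted p 0.0554 in edgeR). Il34, a ligand of the macrophage receptor Csf1r, had 12.5, 11.5 and 14.6 CPM, against 6.98, 7.14 and 5.44 CPM in 21%-labelled lungs, again without overlap, at a log2 difference of 0.98 (adjusted p 0.124).

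**Figure D4:**
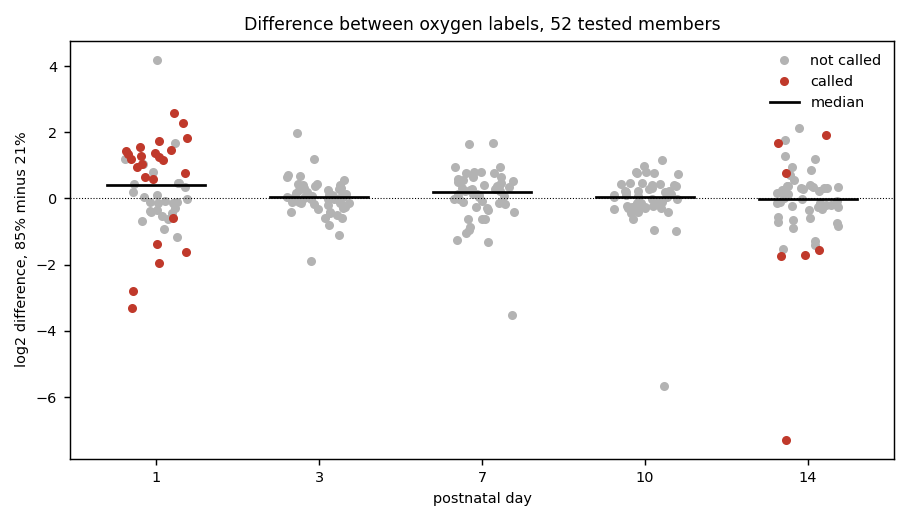
Log2 difference, 85%-labelled minus 21%-labelled, of the 52 tested members at each day, with members called by edgeR in red and the median as a bar. Called members appear at day 1 (18 above and 6 below zero) and day 14 (3 above and 4 below zero), and the lowest point at day 14 is Il6 at -7.28, a fitted value that rests on 1 count in the 85%-labelled group.

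Il1r1, Il15 and Il17d were called at both day 1 and day 14, each in the same direction at both: Il1r1 lower, Il15 and Il17d higher in 85%-labelled lungs. Il1r1 was also lower in every 85%-labelled library at day 7, at 27.0, 21.1 and 33.8 CPM, against 49.7, 38.0 and 38.4 CPM in 21%-labelled lungs, but not called there (log2 difference -0.62, adjusted p 0.421). Il15 was likewise above without overlap at day 7, at 14.4, 20.1 and 10.6 CPM, against 8.10, 9.50 and 9.02 CPM in 21%-labelled lungs (log2 difference 0.76, adjusted p 0.289). At days 3 and 10 the libraries of the groups overlapped for all 3 genes.

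Within each arm the levels of some members differed between days, as those of many genes did. An F test over the 5 days called 24 of 52 members (46.2%) in the 85%-labelled arm, where it called 58.9% of all genes, and 32 members (61.5%) in the 21%-labelled arm, where it called 56.3%. Of these, 18 were called in both arms, 6 only in the 85%-labelled and 14 only in the 21%-labelled arm, a split of calls and not a test that the arms differ. Of the 24 called in the 85%-labelled arm, 11 were highest at day 14 and 7 at day 1. Of the 32 called in the 21%-labelled arm, 12 were highest at day 14, 10 at day 3 and 6 at day 1. Neither the split between the arms nor the highest days were counted over all genes, so they are not shown to be particular to the members.

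Several members had their highest mean at day 14 in both arms. Il6r averaged 49.6 CPM at day 14 and 18.5 CPM at day 1 in the 85%-labelled arm (adjusted p 6.38e-06), and 40.0 CPM at day 14 and 21.5 CPM at day 3, its lowest, in the 21%-labelled arm (adjusted p 0.00168). Il6st averaged 21.8, 21.6, 93.9, 123 and 197 CPM on days 1, 3, 7, 10 and 14 in the 85%-labelled arm. In the 21%-labelled arm its means were 153, 37.7, 181, 105 and 219 CPM on the same days, with day 1 already close to day 7. Il1rl1, the IL-33 receptor ST2, averaged 5.0 CPM at day 14 and 0.612 CPM at day 3 in the 85%-labelled arm, and 4.02 and 0.714 CPM in the 21%-labelled arm. Il1r1 reached 51.0 CPM at day 14 in the 85%-labelled arm and 168 CPM in the 21%-labelled arm (adjusted p 0.00189 and 3.41e-05). Il34 rose in both arms, at 18.1 CPM on day 14 and 6.15 CPM on day 1 in the 85%-labelled arm (adjusted p 0.00135), and 21.7 and 4.45 CPM in the 21%-labelled arm (adjusted p 1.06e-05).

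Il15 and Il23a had their lowest means at day 14 in both arms. Il15 averaged 29.5 CPM at day 1 and 13.8 CPM at day 14 in the 85%-labelled arm (adjusted p 0.018), and 20.2 CPM at day 3 and 4.28 CPM at day 14 in the 21%-labelled arm (adjusted p 0.000626). Il23a was highest at day 3 and lowest at day 14 in both arms, at 3.62 and 1.20 CPM in the 85%-labelled and 2.72 and 1.04 CPM in the 21%-labelled arm. The courses of Il3ra were not alike: it was highest at day 1 (50.4 CPM) and lowest at day 14 (17.8 CPM) in the 85%-labelled arm, but lowest at day 1 (17.1 CPM), highest at day 3 (38.0 CPM) and at 26.2 CPM on day 14 in the 21%-labelled arm. Il1b had its highest mean in between, at 11.3 CPM on day 3 in the 85%-labelled arm and 7.86 CPM on day 10 in the 21%-labelled arm. With the length correlation as a covariate 4 members were called over days in the 85%-labelled arm, and with the mitochondrial share 12. Over all genes these counts were 2133 and 6702, against 10346 without a covariate. In that arm the correlation of level with length was 0.225 to 0.287 at day 1 and 0.382 to 0.4 at day 14. Beyond these fits, its part in the changes over days was not tested.

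**Figure D5:**
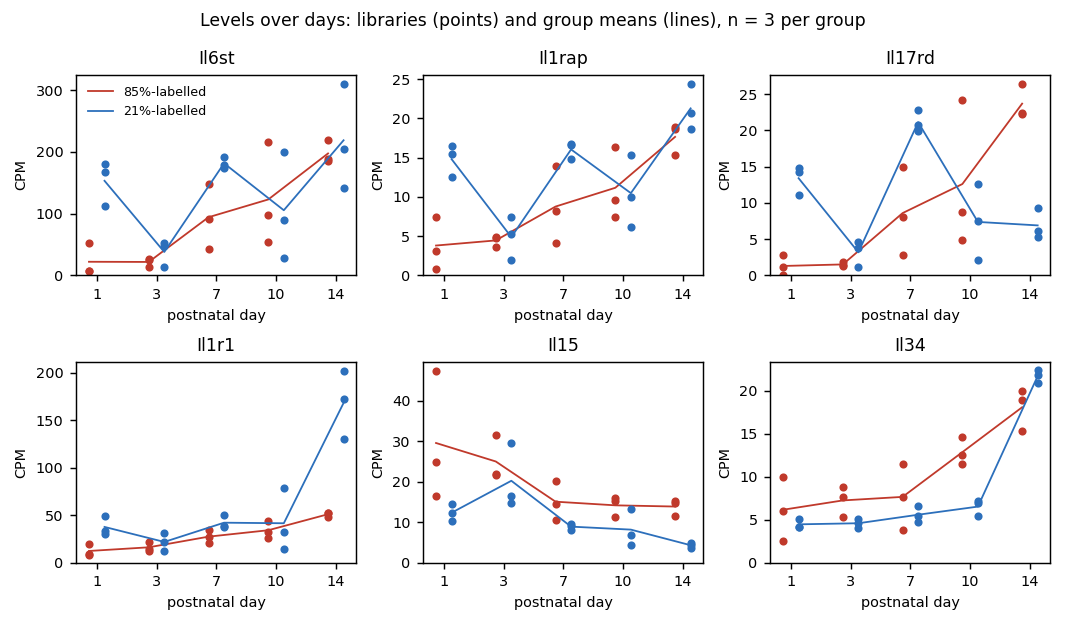
Level in CPM over days 1, 3, 7, 10 and 14 for 6 members, with 1 point per library and lines through the group means (n = 3), 85%-labelled in red and 21%-labelled in blue. Il6st, Il1rap and Il17rd share dips at day 1 (85%-labelled) and day 3 (both arms), Il1r1 separates at day 14, Il15 stays higher in the 85%-labelled arm, and Il34 climbs in both arms.

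A separate F test asked whether the difference between the arms changed with day. It called 14 of 52 members (26.9%), where it called 37.6% of all genes: 5 ligands (Il1a, Il1b, Il6, Il7 and Il24), 6 receptors (Il2rg, Il3ra, Il6r, Il12rb2, Il17rc and Il17rd) and 3 antagonists or decoys (Il1rn, Il1r2 and Il18bp). The limit given above for Il6, which passed the count filter through 21%-labelled libraries, holds for this test too. The log2 difference of Il17rd was -3.32 at day 1, -1.30 at day 7 and 1.78 at day 14 (adjusted p 0.00423). Il17rc had the opposite order, at 0.59 on day 1 and -0.35 on day 14 (adjusted p 0.00327), as did Il3ra, at 1.56 and -0.56 (adjusted p 0.00322). Il1a was higher in 85%-labelled lungs at day 1 by 1.37 and lay at -1.25 on day 7 and -0.99 on day 10 (adjusted p 0.0306). Of the 24 members called at day 1, 10 were also called by this test. The count was 6 without replicate 2 of the 21%-labelled day 1 lungs and 22 without replicate 2 of the 85%-labelled day 1 lungs. Over all genes it was 4670 and 9226 in these fits, against 6613 with all libraries. Over the 52 members 9 were called by none of the tests. The overlap of 10 and this count of 9 were not set beside the same counts over all genes.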

How the data were processed

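Messenger RNA of whole lung was measured in 30 libraries, made with a SMARTer kit from column-purified RNA, per the labels' protocols. The authors deposited 1 table with raw read counts per gene and FPKM values per gene and library, both made by the authors, per the file headers. For the aligner, the counting program, its use of strand and the genome build, the labels and headers gave no statement that could be used here. Groups follow the treatment and day labels.

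The counts went into edgeR 4.0.16 (R 4.3.3, limma 3.58.1) with TMM scaling, edgeR's filter on low counts (17571 of 35224 genes tested) and 1 quasi-likelihood fit over all 30 libraries and 10 groups with 20 residual degrees of freedom. A member was called at a Benjamini-Hochberg adjusted p under 0.05 over all genes tested and, for a comparison at 1 day, an absolute log2 difference of at least 0.5. CPM values use the TMM library sizes, and FPKM served only to compare levels between genes. The procedure was tested on simulated data. Summaries used Python 3.11.15 and pandas 2.3.3. Library totals of 14951463 to 18074590 counts mean that 1 count is far below 1 CPM, and intervals and floors of 3 counts cover counting error only.

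The members named with values were those called at any day or by the test of a difference changing with day that reached a mean of 1 CPM in a group (27), the 5 highest in FPKM, the 3 untested members highest in 1 library, and partners of these. Members and gene lists were chosen with earlier results of these data known. Alternatives were RLE size factors, DESeq2 1.42.0, no low-count filter, the mitochondrial share as a covariate, leaving out libraries above a 6% share, libraries of the day or arm alone, each library left out, a replicate block, and, added after seeing the data, the correlation of level with gene length as a covariate. Same-numbered libraries of the arms deviated together, with a correlation over 0.1, in 8 of 15 pairs (range -0.258 to 0.475). At days 1, 3 and 7 these correlations were 0.00783 to 0.303, and those of differently numbered libraries -0.225 to 0.102. At day 14 the same-numbered correlations were -0.251 to -0.0573. The labels state no pairing, so the fit had no block, and whether the numbers pair the libraries at the earlier days was not settled.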

Additional observations from a re-analysis of the deposited data

Results flagged for a closer look

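For 14 members the difference between 85%-labelled and 21%-labelled lungs changed with day by the F test of edgeR's quasi-likelihood fit, adjusted over all genes tested. Among the ligands the adjusted p was 0.0109 for Il7, 0.0175 for Il6, 0.0232 for Il24, 0.0239 for Il1b and 0.0306 for Il1a. Il6 passed the count filter through 21%-labelled libraries, so a difference was built into its being tested. Among the receptors it was 0.00322 for Il3ra, 0.00327 for Il17rc, 0.00423 for Il17rd, 0.0106 for Il12rb2, 0.0119 for Il2rg and 0.0326 for Il6r. Among the antagonists and decoys it was 0.0243 for Il1r2, 0.027 for Il18bp and 0.0471 for Il1rn. Il7 kept its call under all 37 alternatives, with adjusted p between 0.00282 and 0.0449, and each of the other 13 lost it in at least 1.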

How the results depend on the processing

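At day 1, where 24 members were called, the count was 0 with the mitochondrial share as a covariate, 1 with the length correlation as a covariate, 1 without the libraries above a 6% mitochondrial share and 10 with the libraries of the day alone; with the mitochondrial covariate the log2 difference of Il10ra was 0.28, of Il11ra1 -0.06 and of Il15 -0.14, opposite to the reported signs. At day 7, with 0 called, DESeq2 called 2, and leaving out 1 library gave 0 to 3. At day 10, with 0 called, the count was 1 with the mitochondrial covariate, 3 with the length covariate, 2 without the libraries above 6% and 1 in DESeq2. At day 14, 6 of the 7 called members (all but Il1rl2) kept their call under all 14 alternatives. Il6 is 1 of these 6. In the fits that used the count filter, Il6 passed it through libraries of the arm with more Il6. A difference was therefore built into its being tested there. The count at day 14, with 7 called, was 15 with the length covariate, 11 without the libraries above 6% and 11 with the day alone. For the difference changing with day, with 14 called, it was 5 with the mitochondrial covariate, 6 with the length covariate, 5 without the libraries above 6%, and 6 to 22 when 1 library was left out. Over days in the 85%-labelled arm, with 24 called, it was 12 with the mitochondrial and 4 with the length covariate. Counts over all genes moved too. At day 7 they went from 15 to 216 in DESeq2. At day 14 they went from 3728 to 4513 with the length covariate and 4515 with the day alone. For the difference changing with day they went from 6613 to 3421 with the mitochondrial and 2974 with the length covariate. Over days in the 85%-labelled arm they went from 10346 to 6702 and 2133 with these covariates. The cause was not tested. With a replicate block, although the labels state no pairing, 19 members were called at day 1, 0 at days 3, 7 and 10, and 8 at day 14. Members under 1 CPM rest on few counts, so their differences are the least precise.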
